A study of Danio rerio with 30 samples.

Results

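The genes described are those of the proteasome and of ubiquitin conjugation: every spot of the array whose gene symbol, brought up to date through synonyms, starts with psma, psmb, psmc, psmd, psme, ube2 or uba. The rule was applied to names only and found 114 of 23232 spots, which belong to 87 genes. Of these, 46 spots carried a current symbol, 63 were matched through a synonym, and 5 (ube2g1 at 2 spots, psma2 at 2 spots, ube2l3 at 1 spot) kept a deposited symbol that is a synonym of several genes, so their identity is uncertain. A total of 112 member spots were bright enough to test, and the spots not tested were psmb9a spot 2 and psmd4b spot 1. Sequences of the probes were not used here.

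The proteasome is the protease that degrades most ubiquitin-tagged proteins of the cell. Its core is a barrel of alpha rings (psma genes) around beta rings (psmb genes), and the proteolytic sites lie on the beta subunits. A cap made of ATPases (psmc) and other subunits (psmd) recognizes, unfolds and feeds in the substrate, while activator rings (psme) can open the barrel in its place. Ubiquitin is first bound by an activating enzyme (uba1), passed to a conjugating enzyme (ube2 genes) and then attached to the substrate with a ligase, and SUMO and NEDD8 use relatives of the same enzymes. In mammals, interferon signalling exchanges the standard proteolytic subunits for psmb8, psmb9 and psmb10 and raises the activators psme1 and psme2, which together form the immunoproteasome and its activator and favour peptides for antigen presentation. The gut is a tissue with steady protein turnover and a resident immune system.

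The intestine of wild-type adult male zebrafish of about 1 year was cut into segments S1 (rostral) to S7 (caudal), and the same segment of 10 fish was pooled for each replicate. Segment RNA in Cy5 was hybridized with a common reference in Cy3, the RNA of whole wild-type fish with males and females at a ratio of 9 to 1, on arrays of in-house spotted oligonucleotides. S1, S2, S3 and S4 were represented by 5 arrays each, S5 by 4, and S6 and S7 by 3 each, or 30 arrays in all. No array swapped the dyes, so a preference of a probe for a dye stays in every value against whole fish. Values are log2 ratios of segment to whole fish, in which 1 is a 2-fold higher and -1 a 2-fold lower signal in the segment. A ratio in bulk tissue cannot tell fewer cells of a type from less RNA per cell.

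The arrays of S1 to S5 were compared with each other and S6 and S7 were kept apart. On the S1 to S5 arrays, 78 to 102 of the 114 member spots were above background in Cy5, against 32 to 105 on the S6 arrays and 18 to 43 on the S7 arrays. The reference channel should be alike on all arrays, but its mean correlation with the S1 to S5 arrays was 0.927 among those arrays, 0.106 for S6 and 0.164 for S7. On the log2 ratios, the highest correlation with any other array was 0.11, 0.33 and 0.36 for the S6 arrays and 0.36 to 0.38 for those of S7. It was 0.83 to 0.96 for those of S1 to S5, so the replicates of S6 and of S7 reproduced each other poorly. The spots were also read over 80 pixels on the S6 and S7 arrays and over 120 to 460 on the others. Among S1 to S5, arrays with small spots of 120 pixels numbered 2 of 5 in S1, 4 of 5 in S2, 1 of 5 in S3 and 0 in S4 and S5, so spot size was partly bound to segment. The tissue label held on its markers: all 6 measured enterocyte genes were at least 2-fold above whole fish in S1 to S5, with a median of 2.58, and 5 of 6 measured skeletal muscle genes were at least 2-fold below it.

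Most of the machinery lay close to its whole-fish level along S1 to S5, as did most probes of the array. Over the 112 tested spots, 89 had a mean within 1 of 0 on the log2 scale, a share near that of all tested probes (17235 of 21395). The members' median was -0.12 against 0.03 over all probes. By class median the cap ATPases, the core alpha spots and the psmd spots were the closest, at -0.02, -0.08 and -0.07. All 9 cap ATPase spots, 10 of 11 core alpha spots and 18 of 21 tested psmd spots stayed within 1 of 0. The psmd spots include assembly chaperones of the cap. Not all of these values were measured above background, since a spot could enter the tests through any of the 7 segments. Neither dye was above background on 6 or more S1 to S5 arrays for 18 of the 114 member spots. Among those counted here as within 1 of 0 were psma6b spot 1 (24 of 24 arrays), psmc1a spot 2 (17), psma8 spot 2 (13) and psmd12 spot 2 (13). The core beta class was wider, with 10 of 15 tested spots within 1 of 0 and a median of 0.18. The 41 spots of conjugating enzymes and their variants had a median of -0.35 with 32 within 1 of 0, the 6 spots of other genes with uba names (such as the ubap genes) a median of -0.48, and the 4 activating enzyme spots a median of -0.93. The 3 activators were the class with the highest median, 1.05.

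**Figure D1:**
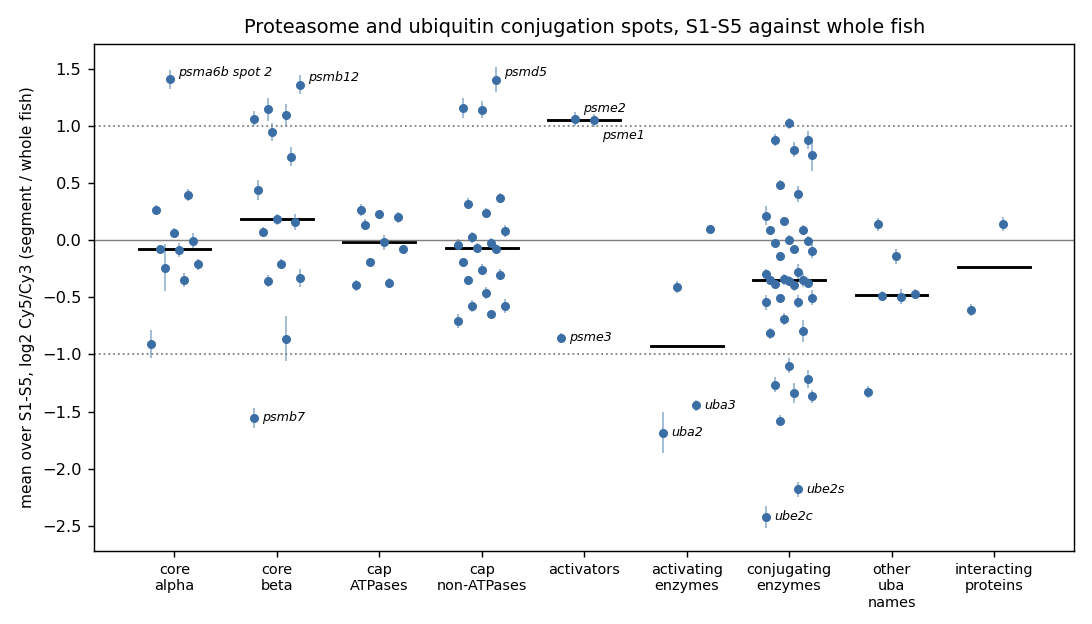
Mean log2 ratio of segment to whole fish over S1 to S5 (vertical axis) for each of the 112 tested spots, by class (horizontal axis). Bars are the SE of the limma fit over 24 arrays, black lines the class medians, and dotted lines mark 2-fold. The cap ATPases cluster around 0, while psme1 and psme2 lie above 1 and ube2c and ube2s below -2.

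Against whole fish, 23 member spots passed an adjusted p of 0.05 (limma, Benjamini-Hochberg over all tested probes) with at least a 2-fold difference. Of these, 11 were higher, beside 7.58% of all tested probes, and 12 were lower, beside 11.9%. The members' shares, 9.82% and 10.7%, lay near these backgrounds, so the group as a whole did not stand out, and the results lie in which members were on each side. With only the arrays of larger spots 6 were higher and 11 lower, beside 17.5% of all tested probes called in either direction. On the authors' log2 values it was 15 and 16, beside 33.6%. The higher spots were psma6b spot 2, psmb9a spot 1, psmb10 at both spots, psmb12, psmd5, psmd11b at both spots, psme1, psme2 and ube2kb spot 2. The lower spots were psmb7, uba2, uba3, ubap2b, ube2c, ube2g1 spot 1, ube2g2 spot 2, ube2q1 at both spots, ube2s, ube2t and ube2wb. The SE and p-values of the comparison with whole fish count the arrays of S1 to S5 as independent. Arrays with the same replicate number may share fish, which the sources do not state, and this comparison was not fitted with a replicate block.

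The immune-type core subunits and the activators that go with them were above whole fish in every segment from S1 to S5. psmb9a, the beta subunit that takes the place of psmb6 in the mammalian immunoproteasome, read 1.28, 1.21, 1.75, 1.55 and 1.54 in S1, 0.74, 0.71, 1.15, 0.74 and 2.07 in S2, 1.14, 1.20, 1.16, 1.02 and 2.21 in S3, 0.82, 0.95, 1.00, 1.02 and 1.81 in S4, and 0.20, 0.47, 0.18 and 1.99 in S5 at its tested spot. All 24 arrays were above 0, the segments overlapped, and its mean was 1.14 ± 0.10 (SE, adjusted p = 4e-10). Its other spot was above background in Cy5 on 0 of 24 arrays and was not tested.

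psmb10, which replaces psmb7 in the mammalian immunoproteasome, gave nearly the same value at both its spots, 1.06 ± 0.06 and 1.09 ± 0.09 (adjusted p = 3.81e-13 and 1.8e-10). At spot 1 the lowest array was 0.21, the median 1.12 and the highest 1.55, and at spot 2 they were 0.22, 1.04 and 1.96. psmb8a, which takes the place of psmb5, ranged from 0.23 to 1.71 with a median of 0.82 and a mean of 0.95 ± 0.08, just under 2-fold (adjusted p = 6.87e-11). The variant beta subunit psmb12, a subunit known from fish that the array lists as psmb11, was the highest core beta spot at 1.36 ± 0.08, with a range from 0.46 to 2.16 (adjusted p = 5.84e-13). All of these spots were above 0 on 24 of 24 arrays.

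The activator subunits psme1 and psme2, which form the ring known as PA28 alpha and beta, followed at 1.05 ± 0.06 and 1.06 ± 0.06 (adjusted p = 1.03e-13 and 2.04e-13). psme1 ranged from 0.50 to 1.62 with a median of 0.99, and psme2 from 0.56 to 1.84 with a median of 1.05, again above 0 on all 24 arrays. The relative psme3, the nuclear PA28 gamma, was on the opposite side in every array, from -1.33 to -0.58 with a median of -0.84 and a mean of -0.85 ± 0.04 (adjusted p = 1.02e-15), which is short of 2-fold. Its values did not overlap those of psme1 or psme2.

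Of the standard subunits that these replace, psmb5 and psmb7 lay below whole fish and psmb6 above it. psmb5 was slightly below whole fish, with a lowest array of -1.005, a highest of 0.19, a mean of -0.36 ± 0.05 and 2 of 24 arrays above 0 (adjusted p = 2.17e-06). psmb7 was clearly below it, at -1.55 ± 0.09 with a range from -2.40 to -0.34 and 0 of 24 arrays above 0 (adjusted p = 1.23e-13), although its Cy5 signal was above background on 16 of the 24 arrays. psmb6 was above whole fish at 0.73 ± 0.08, with 22 of 24 arrays above 0 (adjusted p = 2.33e-08), but its Cy5 signal was above background on 5 of the 24 arrays only. Ratios of different probes to whole fish are relative levels and do not say which subunit was the more abundant.

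Among the arrays of a segment, replicate 5 was often the highest for the immune-type subunits and activators, a pattern noticed after their values were seen. Over 7 spots (psmb8a, psmb9a spot 1, psmb10 at both spots, psmb12, psme1 and psme2) and 5 segments, the array numbered replicate 5 was the highest of its segment in 28 of 35 cases, replicate 4 in 5 and another in 2. Over all tested probes replicate 5 was the highest in 25.2% of cases and over all tested members in 24.8%. It was the highest in at least 4 of the 5 segments for 6 of the 7 spots, the exception being psme2, against 2.36% of all tested probes. psmb9a shows the size of this: replicate 5 had 2.07, 2.21, 1.81 and 1.99 in S2, S3, S4 and S5, and no other array of those segments exceeded 1.20.

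With only replicates 1 to 4, the means of these spots were lower but still above 0: 0.79 ± 0.04 for psmb8a, 0.93 ± 0.04 for psmb9a, 0.94 ± 0.05 and 0.93 ± 0.07 for psmb10, 1.21 ± 0.07 for psmb12, 0.94 ± 0.05 for psme1 and 1.01 ± 0.06 for psme2 (SE, 19 arrays). psmb9a, psmb10 and psme1 thereby fell short of the 2-fold threshold, at adjusted p between 5.89e-13 and 7.05e-10, and psmb12 and psme2 kept to it. Without the arrays of small spots, psmb10 (0.96 and 1.00), psme1 (0.97) and psme2 (0.94) were short of it as well.

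Genes of interferon signalling and antigen presentation were read beside them. Of 18 such genes 8 were measured, with a median of 0.74 in S1 to S5. The antiviral GTPases mxa (1.30) and mxc (1.27) were at least 2-fold above whole fish, irf1b (0.92), mhc1uba (0.86), irf9 (0.62) and the peptide transporter tap2a (0.62) had values above 0 that did not reach 2-fold, and b2m (-0.09) and tapbp.1 (-0.12) lay near 0. The list's median on the replicate 5 arrays was 1.78, 1.47 and 1.39 in S2, S3 and S5, the highest of those segments, but in S1 and S4 it was 1.097 and 0.43, below replicate 4 at 1.21 and 0.80.

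Markers of immune cells lay near whole fish. Of 12 such genes 8 were measured, with a median of -0.01, in which the neutrophil peroxidase mpx (1.80) was above and lysozyme lyz (-2.33) and the class II chain cd74a (-1.11) below by at least 2-fold. The list's median on the replicate 5 arrays was 0.06, 0.29, 0.19, 0.24 and 0.60 from S1 to S5, the highest of the segment in S2 to S5. The part of immune cells and of the fish in a pool in the subunits' level was not tested.

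**Figure D2:**
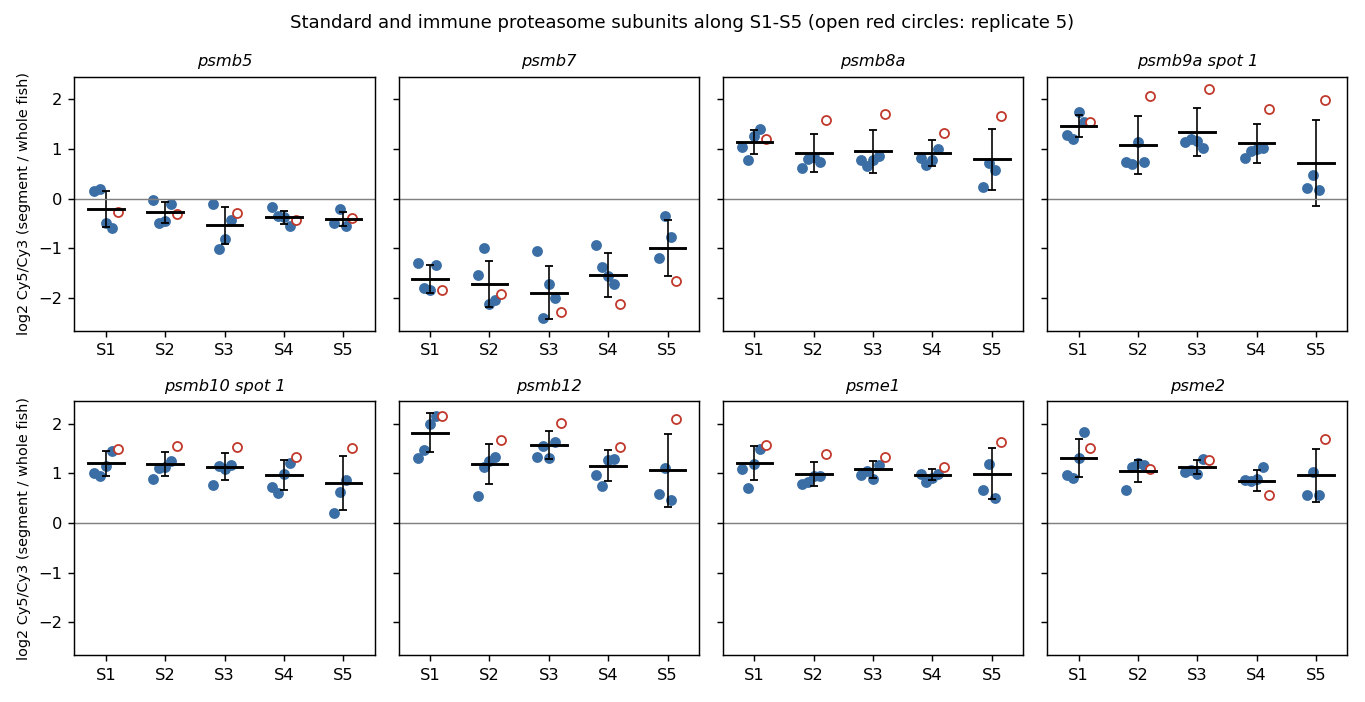
Log2 ratio of segment to whole fish (vertical axis) on each array of S1 to S5 (horizontal axis) for the standard subunits psmb5 and psmb7, the immune-type subunits psmb8a, psmb9a, psmb10 and psmb12, and the activators psme1 and psme2. Lines are segment means, bars the SD, and open red circles replicate 5. The immune-type spots and activators lie above 0 on all 24 arrays, and replicate 5 of psmb9a stands clear of the others in S2 to S5.

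Other members of the core and the cap rose above whole fish without belonging to the immune form. psmd5, a chaperone that helps to assemble the cap, had the highest mean of the psmd genes at 1.40 ± 0.11 (adjusted p = 3.82e-11). Its segment means were 1.05, 1.24, 1.84, 1.97 and 0.91 from S1 to S5, and its arrays ran from 0.52 to 1.56 in S1, 0.56 to 2.73 in S2, 1.56 to 2.39 in S3, 1.39 to 2.62 in S4 and 0.23 to 1.40 in S5. The S3 and S4 arrays were mostly above those of S1 and S5, but they overlapped and the test among segments was not passed (adjusted p = 0.16).

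psmd11b, a subunit of the lid of the cap, gave 1.15 ± 0.09 and 1.14 ± 0.07 at its spots (adjusted p = 3.37e-11 and 1.05e-12), above 0 on 23 and 24 of 24 arrays. Its sister gene psmd11a lay at -0.04, -0.58 and -0.07 at its 3 spots, so the copies of this subunit were on different sides of 2-fold. The cap chaperones psmd10 and psmd9 were below whole fish at -0.65 for the one and -0.35 and -0.19 for the other.

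In the alpha ring, psma6b spot 2 was the highest at 1.41 ± 0.08 (range 0.26 to 2.14, adjusted p = 1.8e-13) and its sister psma6a the lowest at -0.91 ± 0.12, with 0 of 24 arrays above 0. On the 20 arrays with a dye above background psma6a ran from -1.05 to -0.37. On the 4 with neither dye above it, it ran from -3.93 (replicate 1 of S4) to -0.76, and the mean includes these. The other psma6b spot read -0.08, but neither dye was above background there on any of the 24 arrays. psma8, the alpha subunit of the testis in mammals, had -0.09 and -0.35 at its spots, of which spot 2 had neither dye above background on 13 of 24 arrays. All other alpha genes had spots between -0.24 (psma2 spot 2) and 0.39 (psma2 spot 1).

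Several genes were read by spots that did not agree. The spots' means differed by over 1 for psma6b (1.49), ube2kb (1.38), ube2g1 (1.34) and psmb3 (1.30). ube2kb, a conjugating enzyme that builds chains on ubiquitin, had 1.02 ± 0.05 at spot 2 (adjusted p = 1.51e-15) and -0.36 ± 0.04 at spot 1, both above background on all 24 arrays. psmb3, a structural beta subunit, had -0.86 ± 0.20, 0.44 ± 0.09 and 0.07 ± 0.04, and its spots were above background in Cy5 on 23, 24 and 24 arrays. For these genes no direction is given. The ube2g1 pair has a symbol shared by several genes, and its spot 2 was above background in Cy5 on 0 of 24 arrays.

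The lowest members were ube2c and ube2s, conjugating enzymes of the dividing cell. ube2c, which starts ubiquitin chains for the anaphase promoting complex, read -2.39, -2.55, -2.47, -1.29 and -2.89 in S1, -2.10, -2.05, -1.79, -2.92 and -2.53 in S2, -2.76, -2.68, -3.35, -2.50 and -2.41 in S3, -2.53, -2.67, -3.10, -2.76 and -1.87 in S4, and -2.85, -2.27, -2.09 and -1.51 in S5. Every array was below -1 and the segments overlapped, with a mean of -2.42 ± 0.09 (adjusted p = 8.96e-17). The Cy5 signal was above background on 9 of the 24 arrays, so the size is uncertain, whereas Cy3 was above it on all 24.

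ube2s, which lengthens the chains that ube2c starts, was measured above background in both dyes on 24 of 24 arrays. It ranged from -2.86 to -1.35 with a median of -2.24 and a mean of -2.18 ± 0.07 (adjusted p = 1.09e-18). ube2t, the conjugating enzyme of the Fanconi anaemia pathway of DNA repair, ranged from -2.40 to -0.32 with a mean of -1.34 ± 0.09 (adjusted p = 2.76e-12). None of these genes had an array above 0.

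Genes of dividing cells were low on the same arrays. Of 11 measured 9 were at least 2-fold below whole fish, among them ccnb1 (-5.80), top2a (-5.18) and mki67 (-2.37), whereas mcm3 (1.27) was above and mcm6 (0.38) did not reach 2-fold. The coactivators of the anaphase promoting complex cdc20 (-3.10) and fzr1a (-1.47) were below it too. The reference holds the gonads, and of 5 measured germ cell genes zp3b (-5.52), dazl (-3.58) and ddx4 (-2.26) were below the whole fish and sycp3 (2.05) above it. The part of the gonads in the reference was not tested.

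**Figure D3:**
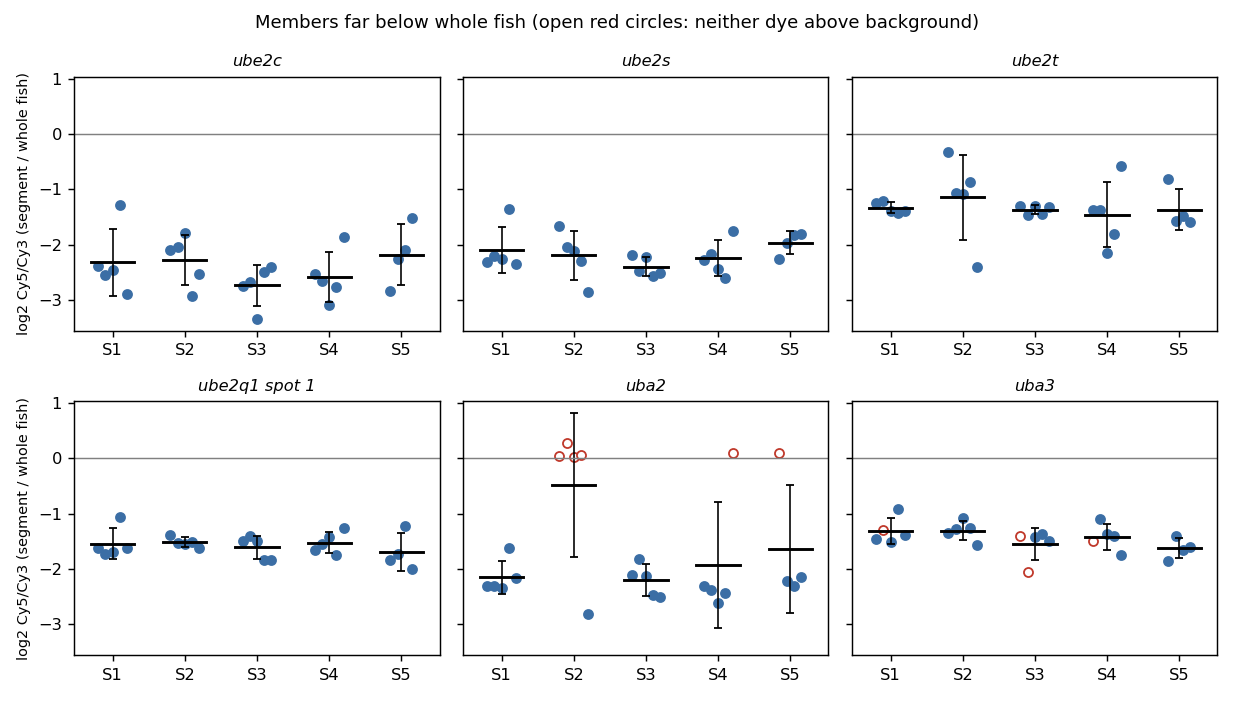
Log2 ratio of segment to whole fish (vertical axis) on each array of S1 to S5 (horizontal axis) for ube2c, ube2s, ube2t, ube2q1 spot 1, uba2 and uba3. Lines are segment means, bars the SD, and open red circles arrays on which neither dye was above background. All points of ube2c, ube2s, ube2t, ube2q1 spot 1 and uba3 lie below 0, and the 6 points of uba2 near 0 are all open.

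The activating enzymes went different ways. uba1, which activates ubiquitin, lay near whole fish at -0.41 ± 0.05 at spot 2, which was above background in Cy5 on 23 of 24 arrays, and at 0.10 at spot 1, which was above it on none. uba3, the catalytic subunit of the NEDD8 activating enzyme, was lower by more than 2-fold at -1.44 ± 0.05 (range -2.05 to -0.91, adjusted p = 4.58e-18), while its partner nae1 had 0.21. uba2, the catalytic subunit of the SUMO activating enzyme, averaged -1.68 ± 0.18 (adjusted p = 7.63e-09), and its partner sae1 was at least 2-fold lower as well (-1.32).

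uba2 fell into distinct values that went with detection, which was itself partly bound to segment S2. On 18 arrays on which either dye was above background it ran from -2.81 to -1.63, and on the 6 arrays on which neither dye was (replicates 1 to 4 of S2, replicate 5 of S4 and replicate 1 of S5) it ran from 0.02 to 0.27. The mean of -0.49 in S2, against -2.20 to -1.64 in the other segments, holds 4 of these 6 arrays. With all arrays in, the test among segments gave an adjusted p of 0.20.

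Among the other conjugating enzymes, the range ran on both sides of whole fish. ube2q1 was low at both spots, -1.58 ± 0.05 and -1.22 ± 0.08 (adjusted p = 8.64e-19 and 2.32e-12), as were ube2wb at -1.10 ± 0.07 (adjusted p = 2.94e-13) and ubap2b, a ubiquitin-associated protein, at -1.33 ± 0.05 (adjusted p = 2.38e-16). At ube2q1 spot 2 neither dye was above background on 6 of 24 arrays. It ran from -2.72 to -0.88 there and from -1.88 to -0.79 on the other arrays, and the mean includes both. ube2g2, which serves the degradation of proteins from the endoplasmic reticulum, gave -1.26 ± 0.06 at spot 2 (adjusted p = 1.1e-14) but -0.51 and -0.39 at its other spots. ube2l3b, a partner of ligases of the HECT and RBR kinds, was on the other side at 0.87 ± 0.05 with 24 of 24 arrays above 0, while its sister ube2l3a lay at -0.14. The SUMO conjugating enzyme ube2ia was at -0.82 ± 0.05 and the enzymes ube2na and ube2nb, which build chains linked through lysine 63 of ubiquitin, at 0.09 and -0.35. The members just outside the 2-fold threshold were psmb8a (0.95) and psma6a (-0.91, with its array at -3.93 in the mean), and those just inside were ube2kb spot 2 (1.02) and ube2wb (-1.10).

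Along S1 to S5 the members changed little. The median range of a member's 5 segment means was 0.33, against 0.36 over all tested probes. In the F test among S1 to S5 1 of 112 members passed, psmb6, beside 5.65% of all tested probes, and 15 members had an unadjusted p under 0.05, beside 18.5% of all probes. Without replicate 5 the F test called 9 members, beside 9.80% of all probes. For the slope along S1 to S5, 1 member rose, beside 3.04% of all probes, and 4 fell, beside 3.11% (5 of 112 in either direction, beside 6.15%), so that in this fit the shares were near or under the background. With the replicate number as a block 10 members had a slope, 2 rising and 8 falling, beside 6.50% of all probes. Whether equal numbers share fish is not stated.

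psmb6, the standard subunit of the caspase-like site, was the member that rose. It read 0.37, -0.02, 0.15, 0.73 and 0.30 in S1, 0.36, 0.18, -0.17, 0.26 and 0.68 in S2, 0.66, 0.42, 0.68, 0.63 and 0.60 in S3, 1.64, 1.67, 1.37, 2.22 and 0.49 in S4, and 0.15, 1.53, 1.06 and 1.25 in S5. In S4, 4 of 5 arrays were above every array of S1, S2 and S3, and in S5 3 of 4 were, with replicate 5 of S4 and replicate 1 of S5 as the exceptions. The segment means were 0.31 ± 0.28, 0.26 ± 0.31, 0.60 ± 0.11, 1.48 ± 0.63 and 1.00 ± 0.60 (SD), the slope was 0.26 per segment on the log2 scale (adjusted p = 0.0086), the F test gave an adjusted p of 0.012, and S3 and S4 were above S1 and S2 by 0.75 (adjusted p = 0.028), the only member among the 0.963% of all probes higher in that comparison.

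This spot was read with an unusual background. Its Cy5 signal was bright, with a spot median of 511 on the dimmest array and 6418 on the median array of the scanner's scale, but the SD of the background around it, 828 to 18933, was the highest of all member spots, against array medians of 63 to 280 over all tested probes. It exceeded the background by over 2 SD in Cy5 on 5 of 24 arrays and in either dye on 12, and Cy5 was saturated on 1. Neither dye did so on replicates 2 to 5 of S1, 1 to 4 of S2, 2 and 5 of S4 and 1 and 2 of S5. There the ratio ran from -0.17 to 1.67, against 0.37 to 2.22 on the other arrays, so detection was partly bound to segment. The slope kept its call with spot size as a block (0.27, adjusted p = 0.038), but the F test did not (adjusted p = 0.059), nor did the slope with only the arrays of larger spots (0.28, adjusted p = 0.084) or with median centring (adjusted p = 0.068), nor on the authors' log2 values or on Cy5 alone. The call of S3 and S4 against S1 and S2 was lost in 13 of 35 alternatives, at 0.78 with spot size as a block (adjusted p = 0.083), at 0.80 with only larger spots (adjusted p = 0.27) and without any 1 of 8 arrays, replicates 2 and 3 of S1, 3 of S2, 3 and 4 of S3 and 1, 2 and 4 of S4 (0.66 to 0.75).

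Genes of the exocrine pancreas, tissue of which lies along the gut of fish, rose over the same segments. All 8 measured of 11 listed had a rising slope that passed the test, and their median on an array ran from -0.44 to 0.14 in S1, -0.18 to 0.27 in S2, -0.33 to 0.48 in S3, 0.96 to 1.98 in S4 and 1.01 to 1.90 in S5. On replicate 5 of S4 and replicate 1 of S5 this median was 1.28 and 1.37, within the range of their segments. Neither dye of psmb6 was above background there, so its low ratios on these arrays cannot be set against this median. The part of pancreas tissue in the psmb6 values was not tested.

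The members that fell were a core subunit, a cap subunit and a pair of conjugating enzymes. psma2 spot 1, an alpha subunit, read 0.51, 0.18, 0.68, 0.92 and 0.83 in S1 and -0.33, 0.19, -0.15 and 0.52 in S5, with segment means of 0.62, 0.58, 0.42, 0.28 and 0.06 and a slope of -0.14 (adjusted p = 0.020). ube2d3, a conjugating enzyme that serves many ligases, read -0.61, -0.03, -0.13, 0.47 and -0.18 in S1 and -1.07, -0.84, -0.38 and -0.71 in S5, with means of -0.10, -0.16, -0.31, -0.45 and -0.75 and a slope of -0.16 (adjusted p = 0.034). For both genes the S1 and S5 arrays overlapped.

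ube2e2 spot 1, another broad conjugating enzyme, read 0.90, 0.44, 0.66, 0.39 and 0.35 in S1 and 0.20, 0.12, -1.07 and 0.07 in S5, and its slope was -0.21 (adjusted p = 0.037). Neither dye was above background on the S5 arrays with 0.20, 0.12 and 0.07, on the S1 array with 0.35 and on replicates 4 and 5 of S2, so these ratios were not measured above background. psmd11a spot 1 had segment means of 0.14, 0.13, -0.03, -0.21 and -0.23 and a slope of -0.11 (adjusted p = 0.048). At the other spots of these genes no slope passed the test: ube2e2 spot 2 had 0.07 (adjusted p = 0.40), psmd11a spots 2 and 3 had -0.03 and -0.04, and psma2 spot 2 had 0.03 (adjusted p = 0.94). psma2 spot 2 had neither dye above background on 4 of 24 arrays and read -3.42, -2.86 and -3.04 on replicates 1 and 3 of S2 and 5 of S4, far from its other values, and the difference between the spots of a gene was not tested.

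The calls of these declines did not hold when spot size was taken into account, while the slopes stayed negative. Small spots lay in S1, S2 and S3 only. With spot size as a block the slopes were -0.099 for psma2 spot 1, -0.13 for ube2d3, -0.18 for ube2e2 spot 1 and -0.084 for psmd11a spot 1 (adjusted p = 0.20 to 0.26), and with only the arrays of larger spots they were -0.083, -0.096, -0.21 and -0.073 (0.13 to 0.42). The part of spot size in the declines was not tested. Leaving out single arrays also ended calls. For psma2 spot 1 these were replicate 4 of S1 (adjusted p = 0.054) and replicates 1 and 3 of S5 (0.066 and 0.058), and for ube2d3 they were replicates 2, 3 and 4 of S1, 4 of S2 and 1, 2 and 5 of S5 (0.051 to 0.090). For ube2e2 spot 1 they were replicates 1, 2 and 3 of S1, 2 and 4 of S2, 2, 3 and 4 of S4 and 3 of S5 (0.051 to 0.12), and for psmd11a spot 1 the call held in 11 of 36 alternatives only.

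**Figure D4:**
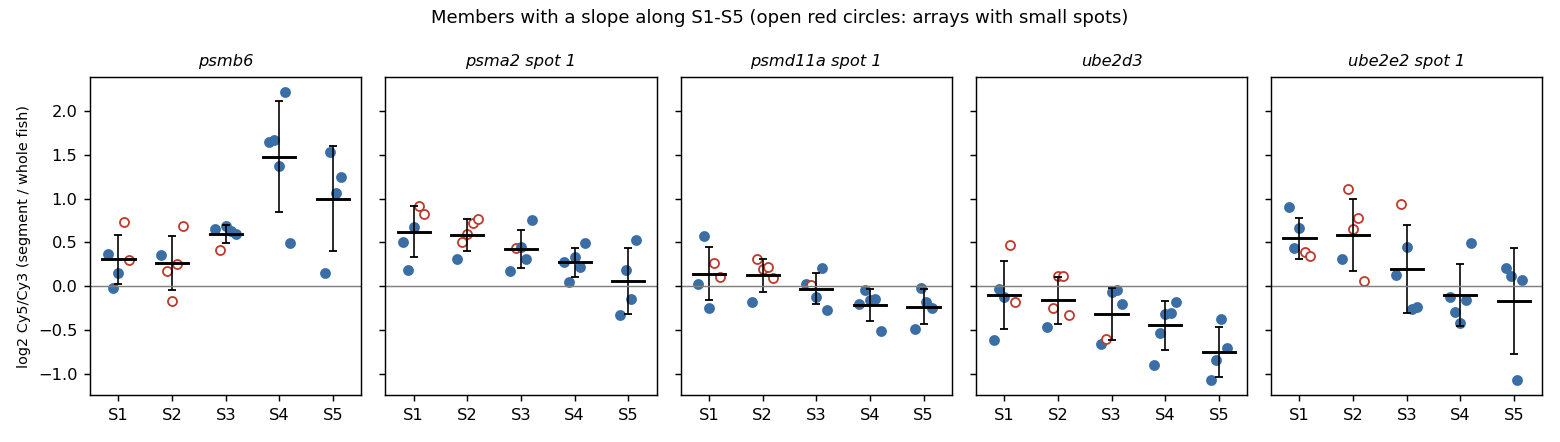
Log2 ratio of segment to whole fish (vertical axis) on each array of S1 to S5 (horizontal axis) for the 5 members with a slope that passed the test. Lines are segment means, bars the SD, and open red circles the arrays with small spots. psmb6 is highest in S4, the other spots decline, and the small-spot arrays lie in S1, S2 and S3 only.

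No member passed the test of S5, the most caudal segment of this set, against S1 to S4. In limma 0 of 112 passed the adjusted threshold, beside 5.10% of all probes (2.54% higher and 2.56% lower), and 12 members had an unadjusted p under 0.05, beside 18.3% of all probes. The count was 1 on Cy5 alone, beside 3.64% of all probes, and 1 with scale normalization, beside 4.01%. It was 3 with the replicate number as a block, beside 5.13%, and it reached 4 without replicate 5 of S5, for which the share of all probes is not given here. The members' median difference was -0.02, against -0.03 over all tested probes.

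In S6 the members lay closer to whole fish than in S1 to S5. The SD of the members' means was 0.73 in S1 to S5, 0.40 in S6 and 0.54 in S7, and over all tested probes it was 0.98, 0.44 and 0.51. Against S1 to S5, 50 members were called in S6, beside 51.3% of all probes, and 49 in S7, beside 52.4%. S6 means ran from -1.22 to 1.04 and S7 means from -1.28 to 2.41. In S6 28 members were higher, beside 26.1% of all probes, and 22 lower, beside 25.2%. On the Cy5 signal alone 17 were higher and 64 lower, beside 65.8% of all probes called in either direction. On the authors' log2 values it was 14 and 31, beside 43.3%, so that the direction depended on the processing. In S7, 28 were higher, beside 26.8%, and 21 lower, beside 25.6%. On Cy5 alone the split was 16 and 71, beside 66.2% called, and on the authors' values 16 and 35, beside 44%.

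On Cy5 alone the members' median difference from S1 to S5 was -1.28 in S6 and -1.39 in S7, while that of all tested probes was 0.15 and 0.07. The normalization gave all arrays the same distribution of intensity averaged over both dyes, which largely fixes the median of all probes. The part of spot brightness in the members' fall was not tested. On the ratio, the members' medians were 0.05 and 0.14 and those of all probes -0.02 and 0.00. In the F test over all 7 segments 16 members passed, beside 14.2% of all probes, and 50 on Cy5 alone, beside 30.4%. Segment and the features by which these arrays stand apart cannot be told apart.

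On the ratio, members and all probes moved toward 0 alike. Of the 50 members called in S6 36 lay nearer 0 than in S1 to S5, beside 67.9% of all called probes, and of the 49 called in S7 32 did, beside 65.0%. The spots at least 2-fold from whole fish were chosen by their S1 to S5 values, so their counts are a description: all 11 above it were lower in S6, beside 92.8% of all probes chosen the same way, and all 12 below it were higher, beside 93.1%. In S7 it was 10 of 11, beside 90.6%, and 10 of 12, beside 91.0%. Of the called members, 3 in S6 and 23 in S7 had no array with Cy5 above background there, and 8 and 11 had all 3.

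The immune-type subunits and activators were lower in S6 and S7 on both scales. On the ratio, so were 92.8% and 90.6% of all probes at least 2-fold above whole fish in S1 to S5. On Cy5 alone 64 and 71 of 112 members were called lower, and the members' median was -1.28 and -1.39. In either direction 81 and 87 members were called there, beside 65.8% and 66.2% of all probes. The share of all probes called lower on Cy5 alone was not counted. A fall in itself was thus not particular to the immune-type subunits among the members. psme2, above background in Cy5 on all 3 arrays of S6, read 0.06, 0.40 and -0.28 there, below every array of S1 to S5, with a difference of -1.001 (adjusted p = 0.000105) and of -1.90 on Cy5 alone. psme1, above background on all 3 arrays of S7, read 0.21, 0.18 and -0.66, which also did not overlap S1 to S5, with a difference of -1.13 (adjusted p = 1.88e-05) and of -1.55 on Cy5 alone. psmb12 was above background in Cy5 on no array of S7, and its Cy5 signal in S1 to S5 was at least 3.77-fold higher than in S7. For psmb8a, above background on no array of S7 either, it was at least 4.05-fold higher. Each bound sets the normalized Cy5 mean of a spot in S1 to S5 against that of the same spot in S7. An array of S7 counts at the lowest probe above background or at the spot itself, whichever is higher. The S7 arrays also differ from the others in spot size and reference signal, and these differences stay in the bounds.

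Other members changed side with the scale. psmd11b spot 1, above background on all 3 arrays of S6 and of S7, was lower on the ratio by 0.92 and 0.98 but higher on Cy5 alone by 1.46 and 3.32. psme3 was higher in S6 on the ratio, with -0.13, 0.01 and 0.09 against at most -0.58 on any array of S1 to S5 (difference 0.84, adjusted p = 5.24e-06), and by 0.42 on Cy5 alone, whereas in S7 the Cy5 difference was -0.38. ube2c was not well above background on any array of S6 or S7, and its differences there are not read as sizes.

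**Figure D5:**
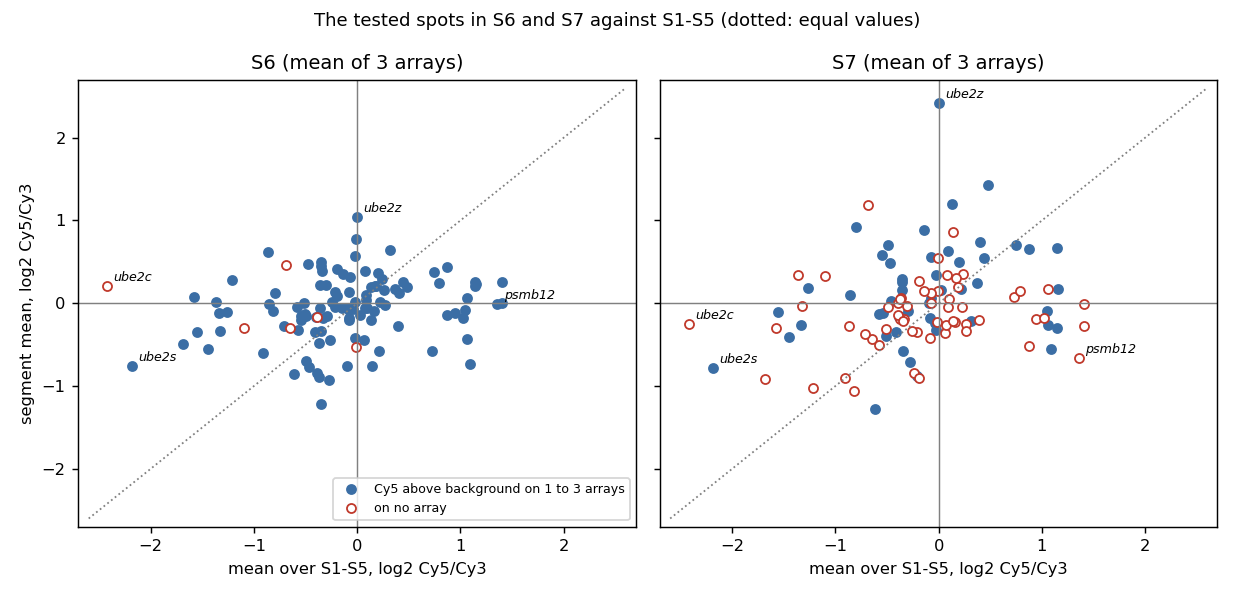
Mean log2 ratio of segment to whole fish in S6 (left) and S7 (right, vertical axes) against the mean over S1 to S5 (horizontal axes) for the 112 tested spots. Filled points had Cy5 above background on 1 to 3 of the 3 arrays, open points on none, and the dotted line marks equal values. The points spread less along the vertical than the horizontal axis, and ube2z in S7 lies at 2.41.

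S7 and S6 shared these features, and the replicates of each correlated poorly with each other. Between S7 and S6 10 members differed, beside 8.41% of all probes, with 5 higher in S7, beside 3.73%, and 5 lower, beside 4.68%. ubac1, an adaptor protein of a ubiquitin ligase, read -0.30, -0.30 and -1.50 in S6 and 0.81, 0.13 and 1.18 in S7, with a difference of 1.41 ± 0.26 (SE, adjusted p = 0.0026). ube2z, the conjugating enzyme that works with uba6, read 1.35, 1.87 and -0.09 in S6 and 1.91, 2.77 and 2.57 in S7, with a difference of 1.37 ± 0.31 (adjusted p = 0.0078), but of 0.23 on Cy5 alone (adjusted p = 0.89). In S1 to S5 all arrays of ube2z lay between -0.40 and 0.61. The S6 and S7 arrays did not overlap for either gene.

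ube2z was higher than in S1 to S5 in both caudal segments, with a difference of 1.04 for S6 (adjusted p = 0.000449) and of 2.41 for S7 (adjusted p = 1.49e-09), and of 3.07 and 3.30 on Cy5 alone. Its Cy5 was above background on 5 of 24 arrays of S1 to S5 and on 2 of 3 in each of S6 and S7, so the sizes are uncertain. On the authors' log2 values the call in S6 was lost (adjusted p = 0.13). The cap ATPase psmc1a spot 1 read 0.14, 0.09 and -0.83 in S6 and 0.90, 1.01 and 1.70 in S7, above background on all 3 arrays of S7 and above every array of S1 to S5 and S6. Its difference between S7 and S1 to S5 was 1.07 on the ratio (adjusted p = 2.53e-05) but -1.18 on Cy5 alone. The cap ATPase psmc6 spot 1 (0.95, adjusted p = 0.017) and the conjugating enzyme ube2h spot 1 (0.68, adjusted p = 0.020) were higher in S7 than in S6 on the ratio, and had -0.20 and -0.015 on Cy5 alone.

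The members lower in S7 than in S6 were the beta subunit psmb4 (-0.84, adjusted p = 0.029), the lid subunit psmd12 spot 2 (-0.86, adjusted p = 0.030), ube2ia (-0.97, adjusted p = 0.039), ube2nb (-0.62, adjusted p = 0.031) and ube2q1 spot 2 (-1.31, adjusted p = 0.015). ube2ia and ube2q1 spot 2 were above background in Cy5 on no array of S7, and psmd12 spot 2 had 0.10 on Cy5 alone. Without background correction and on the authors' log2 values the count between S7 and S6 was 0, beside 0.0234% and 0.668% of all probes. With each array left out in turn it ran from 5 (without replicate 5 of S7) to 15 (without replicate 3 of S7), for which the shares of all probes are not given here.

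Genes around the proteasome and ubiquitin pathway, outside the naming rule, were mostly near whole fish. Of 9 assembly genes 6 were measured, of which akirin2, which brings proteasomes into the nucleus in mammals, was at least 2-fold lower (-1.25) and the core chaperone pomp had 0.63. Of 5 regulators 4 were measured, and the stress regulator nfe2l2a was higher (1.24). Of 14 measured deubiquitinases of 19 listed, uchl1, a neuronal enzyme in mammals, was the lowest (-4.19), usp2a was also lower (-1.45), and uchl3 fell along S1 to S5 by 0.19 per segment (adjusted p = 0.041), the only gene of these lists with a slope that passed.

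Of 8 measured shuttle and segregase genes of 12, ufd1l, a cofactor of the vcp segregase, was higher (2.02) while vcp had -0.54. Of 19 measured ligase genes of 37, the scaffold cul5a was higher (1.21), and besides cdc20 and fzr1a the chaperone-linked ligase stub1 (-2.06) and skp2 (-1.89) were lower. Of 8 measured genes for SUMO, NEDD8 and similar modifiers of 16 listed, sumo3b (-1.74) and sae1 were lower and nedd8 had -0.23. Of the 3 ubiquitin genes 1 was measured, rps27a, which encodes ubiquitin fused to a ribosomal protein, at -0.25.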

How the data were processed

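Intensities of 30 arrays were deposited by the authors as scanner brightness of each spot and its local background in both dyes, not normalized; scanner and software are not given in the sources used here. The log2 values deposited by the authors are the Cy5 to Cy3 ratio times a constant per array, for which the methods name LOWESS; they were used as an alternative. Pixel numbers per spot, deposited with them, sorted arrays by spot size. Background was corrected in limma 3.58.1 (R 4.3.3; tables read with the package data.table, version 1.17.8) with normexp and an offset of 50, and log2 ratios were normalized within arrays by loess, with 245 control spots (at least 10 copies) given no weight and left out. Probes entered the tests where, for some segment, 3 or more arrays showed a Cy5 or a Cy3 median more than 2 SD over local background, which left 21395. Of 23232 spots 11724 carry a symbol, and 14 genes looked for by name (among them psmd14, uba6 and ube2m) had no spot with that symbol.

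Linear models with empirical Bayes moderation were fitted over the 24 arrays of S1 to S5, or over all 30 for S6 and S7, with Benjamini-Hochberg adjustment over the tested probes at 0.05, and at least 2-fold for the comparison with whole fish. The F test over 7 segments used a Bonferroni p under 0.1. Where a gene has several spots, each was kept. The psmc3ip and psme3ip1 spots, named after proteins that bind the proteasome or its subunits, were kept as a class of their own with a median of -0.24. Replicates are pools of 10 fish, and whether equal numbers share fish is not stated. The SE and p-values of every fit without a replicate block count the arrays as independent. The number of arrays limits the precision.

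Members and lists were chosen with earlier results of these data known. Named were members called among segments, the largest calls in each direction, the extremes of each class, fixed subunits and enzymes, and genes whose spots differed by over 1. The model was tested on simulated data with independent arrays that all had the spread of S1 to S5. That test does not cover shared fish, spots below background or the poor agreement of the S6 and S7 replicates. The alternatives tried were median centring, scale normalization, no background correction, other filters, the authors' values, Cy5 alone, a replicate block, all arrays in one fit, spot size, replicates 1 to 4, and leaving out each array; those on spot size and replicates 1 to 4 were chosen after seeing the data.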

Additional observations from a re-analysis of the deposited data

Results flagged for a closer look

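Within S1 to S5, the 59 named spots gave 295 groups of 4 or 5 arrays. In 39 of them the highest or the lowest array lay far from the rest by Dixon's criterion. With independent normal values it would flag about 1 in 20 groups. The rate over all tested probes was not computed, and spots were named partly for their calls, so the count is not a trait of these genes. All values are log2 ratios of segment to whole fish.

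Replicate 5 was such an array for the immune-type subunits in several segments. psmb8a had 1.58 in S2 and 1.71 in S3, psmb9a spot 1 had 2.21 in S3, 1.81 in S4 and 1.99 in S5, and psme1 had 1.39 in S2. In the other direction, psme2 had 0.66 on replicate 1 of S2.

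uba2 stood apart on replicate 4 of S1 (-1.63), replicate 5 of S2 (-2.81), replicate 5 of S4 (0.10) and replicate 1 of S5 (0.094), of which the arrays near 0 had neither dye above background. Its relative uba3 had -2.05 on replicate 2 of S3, ubap2b -1.25 on replicate 4 of S4, and uba1 spot 1 0.72 on replicate 5 of S2.

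Among the other core subunits, psma6a read -3.93 on replicate 1 of S4 and -0.76 on replicate 3 of S5, both with neither dye above background. psma6b spot 1, without signal above background, had -0.37 on replicate 4 of S1 and -0.53 on replicate 5 of S3. psmb3 had 1.12 at spot 2 on replicate 1 of S1 and -0.18 at spot 3 on replicate 3 of S3, psmb4 0.066 on replicate 5 of S4, and psmb9a spot 2, not tested, -0.22 on replicate 4 of S1.

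In the cap, psmc1a spot 1 had -0.094 on replicate 3 of S2, psmc3 0.85 on replicate 2 of S1, psmc6 spot 1 -0.68 on replicate 3 of S1 and psmd5 2.73 on replicate 3 of S2. The interacting proteins psmc3ip and psme3ip1 had -0.34 on replicate 5 of S4 and 1.45 on replicate 2 of S3.

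Of the conjugating enzymes, replicate 4 of S1 stood apart for ube2s (-1.35), ube2q1 spot 1 (-1.06) and ube2g2 spot 2 (-0.39), and replicate 2 of S3 for ube2l3b (1.93) and ube2kb spot 1 (-0.94). ube2al had -1.35 on replicate 1 of S2 and -0.52 on replicate 3 of S5, ube2ka 0.73 on replicate 1 of S1 and -0.24 on replicate 2 of S5, ube2e2 spot 1 -1.07 on replicate 3 of S5, and ube2t -0.82 on replicate 1 of S5.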

How the results depend on the processing

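The 23 calls against whole fish (11 higher, 12 lower) were 23 under each single array left out. They were 19 (7 and 12) with only replicates 1 to 4, beside 18.8% of all probes. With only larger spots they were 17 (6 and 11), beside 17.5%, and on the authors' values 31 (15 and 16), beside 33.6%. The counts in S6 and S7 stayed within 1.5 times of 50 and 49 under every alternative run but Cy5 alone. Of the single values recomputed, 4210 kept direction and call, 365 lost the call and 35 reversed, mostly S6 and S7 on Cy5 alone. Calls in S6 and S7 are limited by few arrays with signal above background, and levels against whole fish by the lack of swapped dyes.

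Counts of members called changed as follows. Without background correction 0 differed between S7 and S6, beside 0.0234% of all probes. With median centring 0 passed the F test among S1 to S5 (beside 5.2% of all probes) and 0 the slope (3.75%). The comparison of S7 with S6 had 5 (5.19%) and the F test over 7 segments 4 (13.1%, against 16 members as reported). With scale normalization S5 had 1 (beside 4.01% of all probes) and the 7-segment F test 9 (beside 13.2%). With both dyes above background, the F test (beside 7.15% of all probes) and S3 and S4 against S1 and S2 (2.51%) had 0. On the authors' values the counts were 0 for the F test (beside 4.89% of all probes), 2 for the slope (5.32%), 0 for S3 and S4 against S1 and S2 (1.7%), 0 for S7 against S6 (0.668%) and 9 over 7 segments (11.6%). S6 had 14 higher and 31 lower there, beside 43.3% of all probes called, and S7 16 and 35, beside 44%. Without background correction these splits were 35 and 18, beside 55.1%, and 40 and 19, beside 56.7%. Cy5 alone gave 2 for the F test (beside 4.56% of all probes), 1 for the slope (2.96%), 1 for S5 (3.64%) and 0 for S3 and S4 against S1 and S2 (0.673%). It gave 81 for S6 (65.8%), 87 for S7 (66.2%), 28 for S7 against S6 (26%) and 50 over 7 segments (30.4%).

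With all arrays in one fit 1 slope passed, beside 2.88% of all probes. With spot size as a block the F test had 0 (beside 4.49% of all probes), the slope 1 (3.97%) and S3 and S4 against S1 and S2 0 (1.42%). With only larger spots the slope had 0 (beside 3.09%), S5 1 (4.46%) and S3 and S4 against S1 and S2 0 (0.673%). With only replicates 1 to 4 the F test had 9 (beside 9.80% of all probes), S5 2 (4.57%) and S3 and S4 against S1 and S2 4 (4.34%). The cause was not tested. With each array left out in turn, the F test had 1 to 4, the slope 2 to 6, S5 0 to 4, S3 and S4 against S1 and S2 0 to 2, S6 47 to 55, S7 40 to 53, S7 against S6 5 to 15 and the 7-segment F test 8 to 18. The shares of all probes in the fits with an array left out are not given here.

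With the replicate number as a block the F test had 4 (beside 5.69% of all probes), the slope 10 (6.50%), S5 3 (5.13%) and S3 and S4 against S1 and S2 3 (2.13%). S6 had 51 (50.5%), S7 51 (51.8%), S7 against S6 10 (8.45%) and the 7-segment F test 17 (12.2%). The numbers were not taken to pair the arrays, since the sources do not say that they do and not every pair correlated above 0.1. Over 46 pairs with the same number, deviations from the segment means correlated by 0.054 on average (-0.63 to 0.52), with 16 over 0.1. The average was -0.014 over 184 other pairs, and 10 of 24 arrays correlated best with their own number. These values do not show that equal numbers come from different fish.

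The reversed values, among which those of ube2c are no sizes since its Cy5 was above background on no array of S6 or S7, were, on the authors' values, psmc6 spot 1 (-0.14) and ube2d3 (-0.23) in S7. On Cy5 alone the slope of psmd11a spot 1 was 0.013. In S6 it gave psmb3 spot 1 -1.88, psmb7 -1.13, uba2 -0.47, uba3 -1.31, ubap2b -2.45, ube2al -1.48, ube2c -0.70, ube2g1 spot 1 -1.79, ube2g2 spot 2 -0.46, ube2h spot 1 0.22, ube2ia -1.34, ube2q1 spot 1 -0.52 and ube2s -1.25. In S7 it gave psmb7 -0.99, psmc1a spot 1 -1.18, psmc3ip 0.61, psmc6 spot 1 -2.09, psmd12 spot 2 3.70, psme3 -0.38, uba3 -1.81, ubap1 -1.32, ubap2b -1.98, ube2al -0.48, ube2c -1.64, ube2d3 -2.33, ube2g1 spot 1 -1.09, ube2g2 spot 2 -0.34, ube2kb spot 1 -0.063 and ube2q1 spot 1 -1.79. Between S7 and S6 it gave psmc6 spot 1 -0.20, psmd12 spot 2 0.10 and ube2h spot 1 -0.015.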
